A study of Homo sapiens with 4 samples.

Results

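The 10 genes followed here are standard targets of the transcription factor NRF2, measured in HaCaT cells with lnc-DC silenced. They were picked by gene name and comprised NQO1, HMOX1, GCLC, GCLM, TXNRD1, SRXN1, SLC7A11, AKR1C1, AKR1C2 and AKR1B10, 10 of the 58825 genes in the deposited table, each with 1 row. HaCaT is an established line of human keratinocytes, which calcium causes to differentiate. The knockdown libraries came from cells given a lentivirus whose hairpin targets lnc-DC, a long noncoding RNA (labelled shlnc-DC), and the control libraries from cells given a lentivirus with a control hairpin (labelled shNC). Each group had 2 libraries. All cells grew in a medium labelled MEPICF500 with calcium at 1.2 mM, and the study set out to describe how loss of lnc-DC alters keratinocytes induced to differentiate. The labels name 1 hairpin treatment and do not say whether the replicates were separate transductions, so the p-values speak only of how these 4 libraries scatter.

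NRF2, encoded by NFE2L2, is the main switch of the antioxidant and detoxifying response. In resting cells the adaptor KEAP1 holds NRF2 and has it degraded through the CUL3 ubiquitin ligase; oxidants or electrophiles modify KEAP1, and NRF2 then pairs with a small MAF protein and binds antioxidant response elements near its targets. In keratinocytes the pathway is known for guarding the skin barrier against oxidants, ultraviolet light and reactive chemicals. The 10 genes cover cystine uptake and glutathione synthesis (SLC7A11, GCLC, GCLM), the thioredoxin system (TXNRD1, SRXN1), reduction of quinones and carbonyls (NQO1, AKR1C1, AKR1C2, AKR1B10) and breakdown of haem (HMOX1).

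Promoter windows from RefSeq (GRCh38.p14; 250 bases before to 50 after each annotated start) were found for 7 of the 10 genes, 8 windows in all because TXNRD1 has 2 starts. They were searched on both strands for TGACNNNGC, the core of the antioxidant response element, and 3 windows held it. These belong to GCLM and to both starts of TXNRD1 and are shown because they hold a match to this core motif. Capitals mark the matches.
GCLM, chr1:93909381-93909680, minus strand: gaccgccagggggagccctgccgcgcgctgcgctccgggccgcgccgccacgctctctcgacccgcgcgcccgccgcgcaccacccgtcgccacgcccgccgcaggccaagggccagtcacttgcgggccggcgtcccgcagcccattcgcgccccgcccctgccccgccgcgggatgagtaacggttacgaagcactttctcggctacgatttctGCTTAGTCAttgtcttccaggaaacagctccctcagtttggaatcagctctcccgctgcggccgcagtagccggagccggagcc
TXNRD1, first start, chr12:104215529-104215828, plus strand: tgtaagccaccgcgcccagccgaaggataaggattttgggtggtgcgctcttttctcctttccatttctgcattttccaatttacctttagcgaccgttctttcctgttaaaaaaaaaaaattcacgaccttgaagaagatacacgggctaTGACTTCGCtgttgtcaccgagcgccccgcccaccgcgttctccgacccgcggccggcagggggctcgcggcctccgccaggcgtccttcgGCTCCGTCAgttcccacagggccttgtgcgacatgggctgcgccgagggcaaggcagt
TXNRD1, second start, chr12:104286782-104287081, plus strand: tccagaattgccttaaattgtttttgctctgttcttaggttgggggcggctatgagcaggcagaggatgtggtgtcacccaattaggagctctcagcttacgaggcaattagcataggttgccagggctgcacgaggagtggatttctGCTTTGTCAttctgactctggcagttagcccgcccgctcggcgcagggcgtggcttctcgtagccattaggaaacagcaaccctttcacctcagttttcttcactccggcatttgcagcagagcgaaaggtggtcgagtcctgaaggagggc

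In the GCLM window the match lay on the reverse strand at -34 to -26 from the start and read TGACTAAGC. The second TXNRD1 start had a reverse match at -102 to -94, which read TGACAAAGC. The first TXNRD1 start had a forward match at -99 to -91 (TGACTTCGC) and a reverse match at -8 to 1 (TGACGGAGC). Of all 35116 RefSeq windows of 300 bases, 13.3% held TGACNNNGC on either strand, so a match in such a window is common. The motif TGACTCA, the AP-1 site that the element resembles, was in none of the 8 windows and in 4.95% of all windows. A match is a run of letters and not a shown binding site, and elements further away lie outside these windows.

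**Figure D1:**
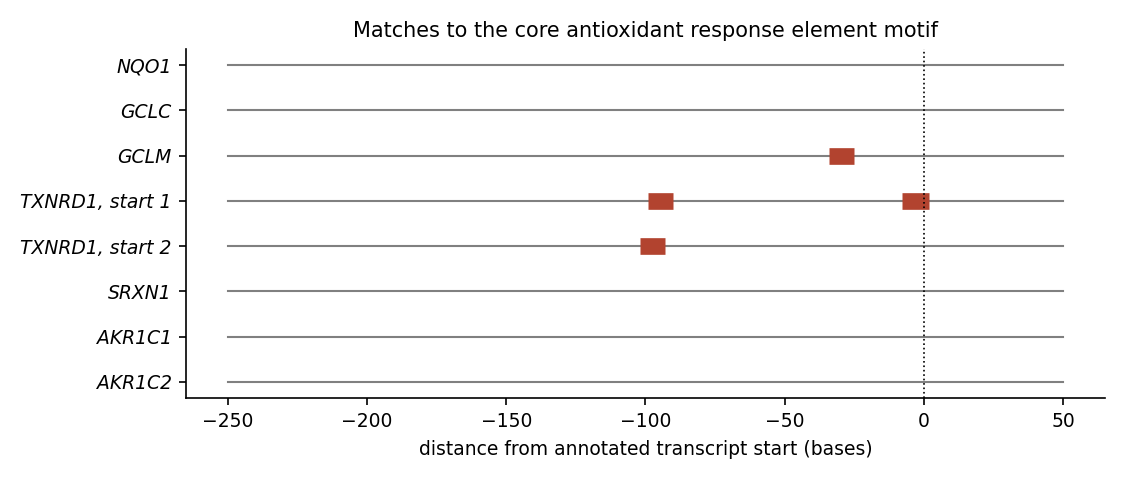
Positions of TGACNNNGC matches (red boxes, either strand) in the 8 promoter windows of 7 genes; the horizontal axis is the distance in bases from the annotated transcript start (dotted line), from 250 before to 50 after it. Matches are seen in GCLM and at both TXNRD1 starts.

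AKR1C1 and AKR1C2 lie next to each other on chromosome 10 and are near-identical copies, so their windows are shown as a pair. Capitals mark the bases that differ or have no partner within the local alignment of the windows, in which 288 of 296 columns were identical (97.3%); the outer ends that lie outside the alignment are left in lower case.
AKR1C1, chr10:4963165-4963464, plus strand: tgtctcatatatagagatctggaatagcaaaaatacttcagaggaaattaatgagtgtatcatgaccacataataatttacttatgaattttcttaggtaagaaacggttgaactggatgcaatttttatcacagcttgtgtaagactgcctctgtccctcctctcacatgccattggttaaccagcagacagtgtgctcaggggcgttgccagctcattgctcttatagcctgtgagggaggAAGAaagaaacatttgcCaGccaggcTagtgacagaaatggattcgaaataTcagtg
AKR1C2, chr10:5003808-5004107, minus strand: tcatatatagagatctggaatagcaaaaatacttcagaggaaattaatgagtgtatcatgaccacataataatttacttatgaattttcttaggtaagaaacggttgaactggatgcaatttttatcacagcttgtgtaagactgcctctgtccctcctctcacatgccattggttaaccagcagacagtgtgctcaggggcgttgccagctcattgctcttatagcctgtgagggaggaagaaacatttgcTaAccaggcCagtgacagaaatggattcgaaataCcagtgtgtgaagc

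Their coding sequences, each of 972 bases in GENCODE 29, were 98.0% identical, and 4.98% of all stretches of 150 bases (the read length) in AKR1C1 also occurred unchanged in AKR1C2. Reads that fall within those stretches fit both genes. Untranslated ends were not compared, and how reads were split between the genes was not examined. AKR1C3, a further aldo-keto reductase of the same cluster, was 91.5% identical to AKR1C1, and no stretch of 150 bases was shared by this pair, whereas AKR1C2 shared 2.67% of its stretches with AKR1C3.

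The values were FPKM (fragments scaled by transcript length and by the library's total), which allow levels to be compared between genes. A gene was tested when its mean reached 1 FPKM in at least 1 group, which held for 12411 genes and for 8 of the 10 NRF2 targets. Those 8 reached 1 FPKM in both groups; HMOX1 and AKR1B10 did so in neither. In the bulk RNA measured here, fewer cells that express a gene and less RNA per cell cannot be told apart. WFDC21P, the gene that yields lnc-DC, had 0.09 and 0.29 FPKM in the knockdown libraries, against 2.15 and 2.76 FPKM in the control libraries (log2 difference -1.54, SE 0.188; limma adjusted p = 0.0715). That difference was -3.22 with a pseudocount of 0.1 FPKM, and the knockdown mean was 0.0774 of the control mean, or 0.118 without knockdown replicate 1 and 0.0367 without knockdown replicate 2. Of 15 keratinocyte and epithelial markers 12 reached 1 FPKM in at least 1 group, while KRT14, KRT16 and KRT17 did not; no fibroblast marker of 8 did, and MITF, CD68 and CDH5 were the markers of melanocytes, leukocytes and endothelium at or above 1 FPKM.

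All 8 measured NRF2 targets had higher values in both knockdown libraries than in both control libraries. The fold of the mean FPKM lay between 1.21 for NQO1 and 2.92 for TXNRD1, and the median log2 fold change of the 8 was 0.77, beside 0.09 over all genes tested, of which 61.4% lay above 0. None passed the threshold of an adjusted p of 0.05 across all genes (limma, 0 of 8, with 0.113% of all genes tested called higher and 0.137% lower); at an unadjusted p under 0.05, 7 of 8 were higher, beside 14.8% of all genes tested, and none lower, beside 8.00%. Complete separation was seen with the knockdown above in 35.6% and below in 19.2% of all genes tested, so separation of groups of 2 is a weak mark for any 1 gene. The 10 genes were chosen with results of these data known, so these counts describe them and carry no test.

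**Figure D2:**
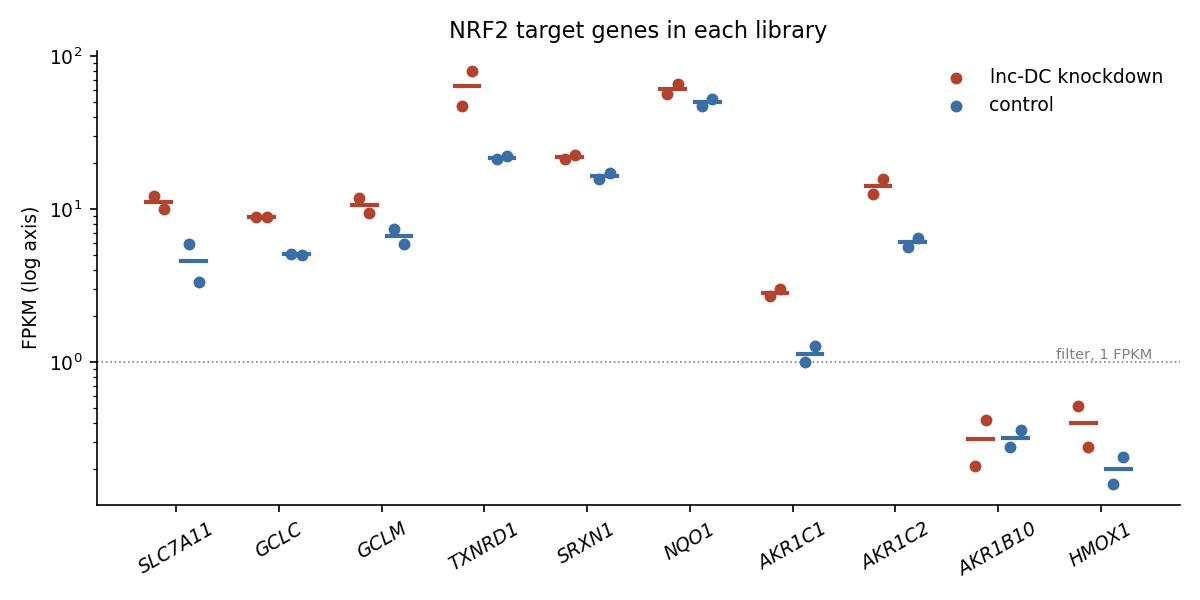
FPKM of the 10 NRF2 target genes on a log axis in each library, with knockdown (red) left of control (blue); points are the 2 libraries of a group and lines their mean, and the dotted line is the filter at 1 FPKM. Knockdown points lie above control points for the 8 genes over the filter, while AKR1B10 overlaps.

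SLC7A11, GCLC and GCLM, the targets of cystine uptake and of the first step of glutathione synthesis, were higher in both knockdown libraries by a fold of 1.59 to 2.41. SLC7A11 (ENSG00000151012), the cystine carrier of the plasma membrane exchanger xCT, had 12.20 and 10.02 FPKM in knockdown cells, against 5.88 and 3.34 FPKM in control cells. The control libraries differed more from each other than the knockdown libraries did. The fold of the means was 2.41 and ranged from 1.89 without control replicate 2 to 3.33 without control replicate 1 (log2 difference 1.14, 95% interval 0.47 to 1.81; limma adjusted p = 0.113).

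GCLC (ENSG00000001084), the catalytic subunit of glutamate-cysteine ligase, which carries out the first step of glutathione synthesis, had 8.87 and 8.82 FPKM in knockdown cells, against 5.11 and 5.03 FPKM in control cells. Its replicates lay closest together among the 8 genes in both groups, and the gap between the groups was far wider than the gap within either. The fold was 1.74, and 1.73 to 1.76 when any 1 library was left out (log2 difference 0.70, SE 0.105; limma adjusted p = 0.0782). GCLM (ENSG00000023909), the modifier subunit that raises the activity of GCLC, had 11.8 and 9.42 FPKM in knockdown cells, against 7.41 and 5.96 FPKM in control cells. The groups did not overlap, but the lower knockdown library exceeded the higher control library by a fold of only 1.27 (log2 difference 0.59, SE 0.166; limma adjusted p = 0.147). The ratio of GCLC to GCLM was 0.845 ± 0.130 in knockdown cells and 0.767 ± 0.109 in control cells (SD, n = 2 each), with overlapping values.

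The thioredoxin arm held both the largest fold among the 8 genes and one of the smallest. TXNRD1 (ENSG00000198431), the cytosolic selenoprotein that reduces thioredoxin with NADPH, had 47.2 and 79.3 FPKM in knockdown cells, against 21.3 and 22.1 FPKM in control cells. The control libraries were close, whereas the knockdown libraries differed by 0.74 on the log2(FPKM + 1) scale, more than the 95th percentile of 0.72 over all genes tested. The fold of the means was 2.92, or 3.66 without knockdown replicate 1 and 2.18 without knockdown replicate 2 (log2 difference 1.46, 95% interval 0.77 to 2.14; limma adjusted p = 0.0939). Only 0.387% of all genes tested had a larger log2 fold change. The table gives 1 value per gene, so transcripts from the 2 starts shown above are not separated.

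SRXN1 (ENSG00000271303), sulfiredoxin, which restores overoxidised peroxiredoxins, had 21.4 and 22.5 FPKM in knockdown cells, against 15.8 and 17.3 FPKM in control cells. The groups were separate and the spread within each was small, with a fold of 1.32 (log2 difference 0.39, 95% interval 0.10 to 0.67; limma adjusted p = 0.148).

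Among the reductases, the AKR1C pair had mean values over 2 times as high in knockdown libraries, and NQO1 had the smallest fold of the 8 genes. NQO1 (ENSG00000181019), a quinone reductase and a widely used readout of NRF2 activity, had 56.2 and 65.2 FPKM in knockdown cells, against 47.3 and 52.7 FPKM in control cells. The lower knockdown library lay just above the higher control library, by a fold of 1.07. The fold of the means was 1.21 and the 95% interval of the log2 difference, -0.07 to 0.62, included 0 (limma adjusted p = 0.295), so NQO1 was the one measured target with an unadjusted p above 0.05. A log2 fold change larger than that of NQO1 was found in 26.7% of all genes tested. The difference between the changes of NQO1 and TXNRD1 was not tested; their intervals did not overlap.

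AKR1C2 (ENSG00000151632), a ketosteroid reductase, had 12.5 and 15.8 FPKM in knockdown cells, against 5.67 and 6.49 FPKM in control cells. Each knockdown library was at least 1.93 times each control library, and the fold of the means was 2.33 (log2 difference 1.09, SE 0.155; limma adjusted p = 0.0747). AKR1C1 (ENSG00000187134), a reductase that inactivates progesterone, had 2.70 and 2.99 FPKM in knockdown cells, against 1 and 1.27 FPKM in control cells. It was the lowest of the 8 genes in both groups, and its fold was 2.51 (log2 difference 0.85, SE 0.147; limma adjusted p = 0.0921). Summed as 1 feature, which takes the split of reads between these copies out but not any sharing with AKR1C3, the pair had 15.2 and 18.8 FPKM in knockdown cells, against 6.67 and 7.76 FPKM in control cells, a fold of 2.36 (log2 difference 1.13, SE 0.152; limma adjusted p = 0.0718). The ratio of AKR1C2 to AKR1C1 was 4.97 ± 0.465 in knockdown cells and 5.39 ± 0.396 in control cells (SD, n = 2 each), with overlapping values. Their relative AKR1C3, a prostaglandin and steroid reductase, had 5.84 and 6.90 FPKM in knockdown cells, against 3.36 and 3.75 FPKM in control cells (limma adjusted p = 0.102).

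AKR1B10 and HMOX1 were near the bottom of the scale in every library. AKR1B10 (ENSG00000198074), a reductase of retinal and lipid aldehydes that is high in some epithelial tumours, was listed at 0.21 and 0.42 FPKM in knockdown cells, against 0.28 and 0.36 FPKM in control cells. The control values fell inside the range of the knockdown values. Its close relative AKR1B1, aldose reductase, had 21.0 and 22.7 FPKM in knockdown cells, against 13.9 and 13.5 FPKM in control cells (limma adjusted p = 0.0866). HMOX1 (ENSG00000100292), the inducible haem oxygenase, was listed at 0.52 and 0.28 FPKM in knockdown cells, against 0.16 and 0.24 FPKM in control cells. The lower knockdown value lay just above the higher control value, and both groups lay below the filter. The authors' deposited table lists a fold of 2.05 for HMOX1 and 0.98 for AKR1B10.

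**Figure D3:**
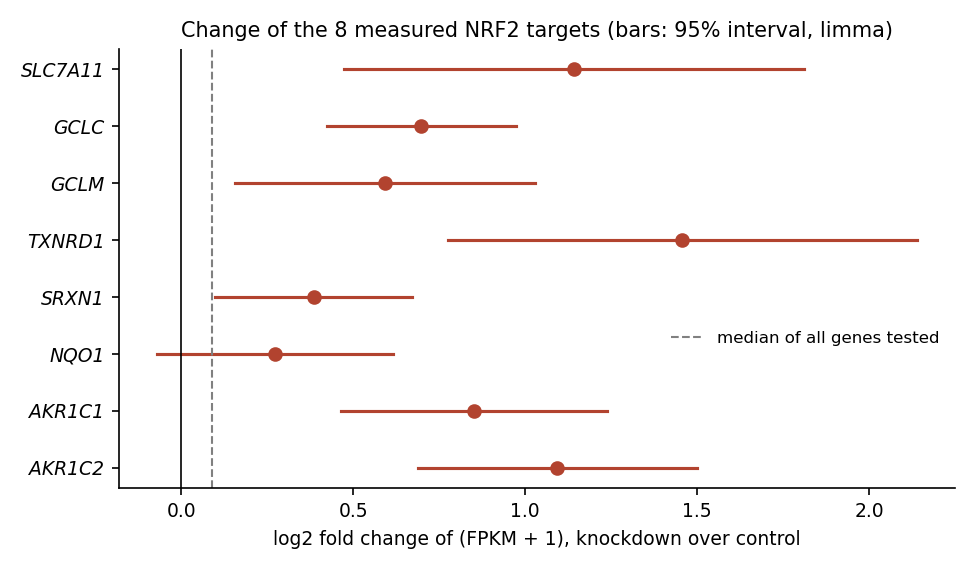
Log2 fold change of FPKM + 1, knockdown over control, for the 8 measured NRF2 targets; points are limma estimates from 2 libraries per group, bars their 95% intervals, and the dashed line the median of all 12411 genes tested (0.09). All 8 points lie right of that median, and the interval of NQO1 includes 0.

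The order of the levels differed between the groups. In knockdown cells TXNRD1 (63.3 ± 22.7 FPKM) and NQO1 (60.7 ± 6.36 FPKM) led with overlapping values, followed by SRXN1 (21.9 ± 0.820), AKR1C2 (14.2 ± 2.34), SLC7A11 (11.1 ± 1.54), GCLM (10.6 ± 1.67), GCLC (8.85 ± 0.0354) and AKR1C1 (2.85 ± 0.205), where SLC7A11 and GCLM overlapped (mean FPKM ± SD, n = 2 each). In control cells NQO1 (50.0 ± 3.83 FPKM) stood above TXNRD1 (21.7 ± 0.552) without overlap, followed by SRXN1 (16.6 ± 1.054), GCLM (6.69 ± 1.03), AKR1C2 (6.08 ± 0.580), GCLC (5.07 ± 0.0566), SLC7A11 (4.61 ± 1.80) and AKR1C1 (1.14 ± 0.191). There GCLM overlapped AKR1C2, and SLC7A11 overlapped GCLC and AKR1C2. TXNRD1 reached 1.03 ± 0.266 times the FPKM of NQO1 in knockdown cells, against 0.435 ± 0.0223 times in control cells (SD, n = 2 each), and these ratios did not overlap.

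GENCODE 29 (GRCh38) places all 10 genes as protein coding. On the minus strand lie NQO1 (chromosome 16, 69706996 to 69726951), GCLC (chromosome 6, 53497341 to 53616970), GCLM (chromosome 1, 93885205 to 93909456), SRXN1 (chromosome 20, 646615 to 653370), SLC7A11 (chromosome 4, 138164097 to 138242349) and AKR1C2 (chromosome 10, 4987400 to 5018031). On the plus strand lie TXNRD1 (chromosome 12, 104215779 to 104350305), AKR1C1 (chromosome 10, 4963253 to 4983283), AKR1B10 (chromosome 7, 134527592 to 134541408) and HMOX1 (chromosome 22, 35380361 to 35394214). GCLC and SRXN1 each share exon positions with 1 other gene on the same strand, and NQO1, GCLC and SLC7A11 with 1 on the other strand. These partners did not exceed 0.28 FPKM in any library, the value of SLC7A11-AS1 in knockdown replicate 1.

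All 12 genes of a list assembled for the control of NRF2 were measured, and none passed the threshold over all genes (limma). At an unadjusted p under 0.05, 4 of 12 were higher and 1 lower, beside 14.8% and 8.00% of all genes tested, with a median log2 fold change of 0.19 over the 12. SQSTM1, the autophagy receptor p62, which binds KEAP1 and is itself an NRF2 target, came closest, with 104.2 and 103.8 FPKM in knockdown cells, against 50.4 and 50.6 FPKM in control cells. Its fold was 2.06 (log2 difference 1.03, SE 0.101; limma adjusted p = 0.0550). The limma adjusted p of SQSTM1 was 0.0449 with the filter raised to 5 FPKM, where 31 genes were called higher and 27 lower over all genes. In the other alternatives that kept all 4 libraries this p lay between 0.0555 (nuclear genes rescaled) and 0.174 (no filter). NFE2L2 itself had 28.6 and 27.9 FPKM in knockdown cells, against 20.9 and 20.9 FPKM in control cells, a fold of 1.35 (limma adjusted p = 0.118). NRF2 is known to be set largely at the protein level, which these RNA values do not show.

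KEAP1, the repressor, had 16.7 and 16.5 FPKM in knockdown cells, against 13.1 and 12.6 FPKM in control cells (fold 1.29, limma adjusted p = 0.152). BTRC, which recruits NRF2 to another ubiquitin ligase, had 4.90 and 4.73 FPKM in knockdown cells, against 6.81 and 6.64 FPKM in control cells (limma adjusted p = 0.134). Among the small MAF partners, MAFG had 8.46 and 9.64 FPKM in knockdown cells, against 7.04 and 6.21 FPKM in control cells (limma adjusted p = 0.174). MAFK had 5.85 and 4.58 FPKM in knockdown cells, against 5.40 and 4.93 FPKM in control cells, with overlapping values. MAFF had 4.31 and 4.17 FPKM in knockdown cells, against 3.66 and 0.96 FPKM in control cells, so the control libraries were far apart. BACH1, which represses HMOX1 and other targets, had 3.56 and 3.04 FPKM in knockdown cells, against 2.57 and 2.81 FPKM in control cells (limma adjusted p = 0.392).

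Other genes of the pathway had values on both sides of 0. Among 18 measured genes of glutathione synthesis and use, none passed over all genes (limma), 4 were higher and 2 lower at an unadjusted p under 0.05 (beside 14.8% and 8.00% of all genes tested), and the median log2 fold change was 0.19. GSS, which carries out the second step of glutathione synthesis and is named here after its values were seen, had a fold of 1.02 with overlapping values. SLC3A2, the heavy chain that carries SLC7A11 to the membrane, had 103.9 and 94.5 FPKM in knockdown cells, against 60.4 and 63.8 FPKM in control cells (fold 1.60, limma adjusted p = 0.0894). GPX8, a peroxidase of the endoplasmic reticulum, had 12.7 and 12.7 FPKM in knockdown cells, against 6.51 and 6.93 FPKM in control cells (fold 1.89, limma adjusted p = 0.0723). Values were also higher in both knockdown libraries for GGCT (fold 1.59), a gamma-glutamyl cyclotransferase, and GLRX2 (fold 1.502), a glutaredoxin. GSTP1, the most abundant gene of the list and a glutathione transferase, had 136 and 119 FPKM in knockdown cells, against 156 and 196 FPKM in control cells (fold 0.723, limma adjusted p = 0.2003).

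In the thioredoxin and peroxiredoxin list 15 of 17 measured genes lay above 0 on the log2 scale, beside 61.4% of all genes tested, with a median of 0.14; none passed over all genes (limma), and 1 was higher and 2 lower at an unadjusted p under 0.05, beside 14.8% and 8.00% of all genes tested. TXN, thioredoxin, the substrate of TXNRD1 and the most abundant of the list, had 402 and 459 FPKM in knockdown cells, against 312 and 389 FPKM in control cells (limma adjusted p = 0.357). TXNIP, which binds and inhibits thioredoxin, had 4.86 and 4.71 FPKM in knockdown cells, against 8.13 and 10.9 FPKM in control cells (fold 0.503, limma adjusted p = 0.1003). PRDX5, a peroxiredoxin, was lower in both knockdown libraries (fold 0.699), while PRDX4 (fold 1.28) and the methionine sulfoxide reductase MSRA (fold 1.38) were higher in both.

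Enzymes that supply NADPH gave a median log2 fold change of 0.15 over 8 measured genes, with none past the threshold over all genes (limma) and 2 higher and none lower at an unadjusted p under 0.05 (14.8% and 8.00% of all genes tested). MTHFD2, a mitochondrial folate enzyme that ATF4 also controls, had 24.8 and 28.6 FPKM in knockdown cells, against 15.98 and 18.15 FPKM in control cells (fold 1.57, limma adjusted p = 0.110). NNT, the mitochondrial transhydrogenase, had a fold of 1.25 (limma adjusted p = 0.195). PGD, of the pentose phosphate pathway, had 1.24 (limma adjusted p = 0.364) and malic enzyme ME1 1.16 (limma adjusted p = 0.417). Each of these genes had both knockdown libraries above both control libraries, as did 35.6% of all genes tested. The log2 difference of PGD ran from 0.0917 without control replicate 1 to 0.554 without control replicate 2. TKT, transketolase and the most abundant of the list, had overlapping values (68.1 and 62.0 FPKM in knockdown cells, against 62.2 and 66.0 FPKM in control cells).

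Haem and iron genes split in both directions, with 4 of 8 measured genes above 0, a median log2 fold change of -0.09, none past the threshold over all genes (limma), and 2 higher and 1 lower at an unadjusted p under 0.05 (14.8% and 8.00% of all genes tested). FTL, the ferritin light chain and a known NRF2 target, had 641 and 656 FPKM in knockdown cells, against 360 and 389 FPKM in control cells (fold 1.73, limma adjusted p = 0.0855). FTH1, the ferritin heavy chain and also a known NRF2 target, was slightly lower, with 965 and 1021 FPKM in knockdown cells, against 1164 and 1184 FPKM in control cells (fold 0.846, limma adjusted p = 0.377). TFRC, the transferrin receptor, had 93.9 and 75.1 FPKM in knockdown cells, against 38.1 and 36.0 FPKM in control cells (fold 2.28, limma adjusted p = 0.0723). BLVRB (fold 0.594), a biliverdin reductase, and SLC48A1 (fold 0.746), a haem transporter, were lower in both knockdown libraries.

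Of 19 measured genes of detoxification and export none passed over all genes (limma), 4 were higher and 2 lower at an unadjusted p under 0.05 (14.8% and 8.00% of all genes tested), and the median log2 fold change was 0.13. ABCG2, a drug exporter, had 7.01 and 8.25 FPKM in knockdown cells, against 3.46 and 3.72 FPKM in control cells (fold 2.13, limma adjusted p = 0.0747). UGT1A6, a glucuronosyltransferase and the most abundant of the list, had a fold of 1.22. AKR1A1, an aldehyde reductase, had 14.2 and 14.9 FPKM in knockdown cells, against 24.1 and 24.4 FPKM in control cells (fold 0.601, limma adjusted p = 0.0747). ALDH7A1, an aldehyde dehydrogenase, was also lower in both knockdown libraries (fold 0.587, limma adjusted p = 0.0944).

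A list of 19 further candidate targets had 13 measured genes, with a median log2 fold change of 0.24, none past the threshold over all genes (limma), and 3 higher and 1 lower at an unadjusted p under 0.05 (14.8% and 8.00% of all genes tested). NMRAL2P, a pseudogene transcript known to be induced by NRF2, had 3.18 and 4.96 FPKM in knockdown cells, against 1.66 and 0.89 FPKM in control cells (fold 3.19, limma adjusted p = 0.115). TNFAIP3, better known as a feedback inhibitor of NF-kappaB, had 9.51 and 8.42 FPKM in knockdown cells, against 4.64 and 3.61 FPKM in control cells (fold 2.17, limma adjusted p = 0.0825). FOSL1, an AP-1 factor, had 35.8 and 25.5 FPKM in knockdown cells, against 9.14 and 19.2 FPKM in control cells. PIR, pirin, an NRF2 target in other epithelial cells, was lower in both knockdown libraries (fold 0.755, limma adjusted p = 0.184), and HTATIP2 overlapped between the groups.

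**Figure D4:**
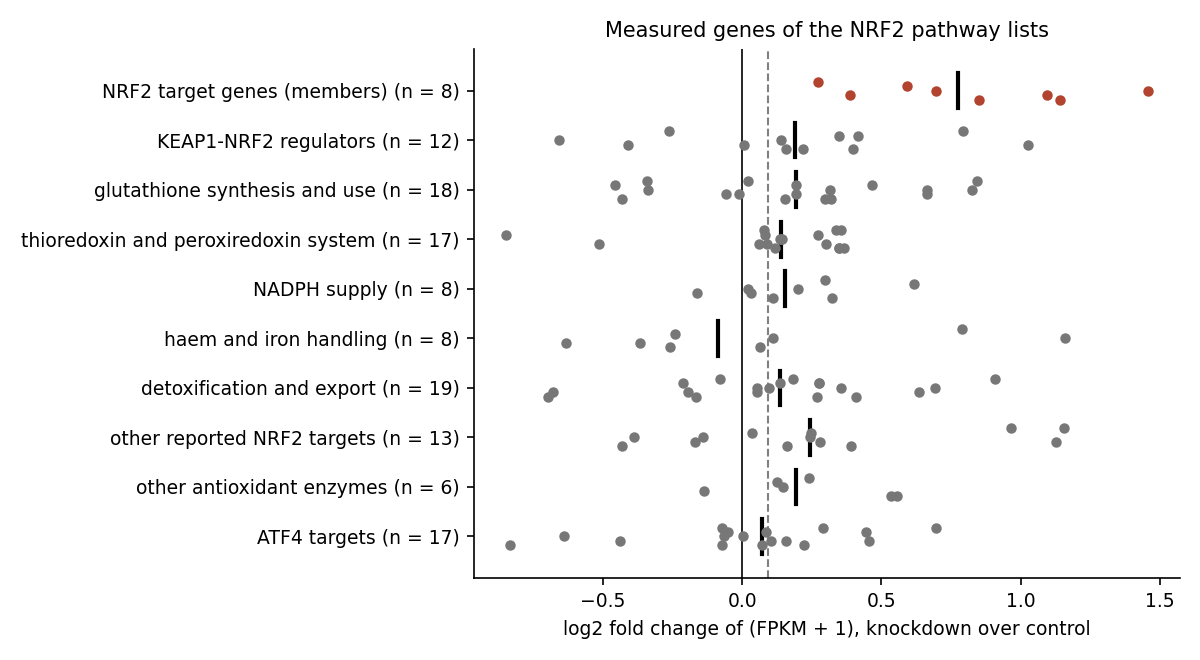
Log2 fold change of FPKM + 1, knockdown over control, for each measured gene (points) of the 8 targets (red) and of 9 lists of related genes (grey), with n measured genes in parentheses; black bars are list medians, the solid line is 0 and the dashed line the median of all genes tested. The 8 targets lie above 0 with a median of 0.77, and the other list medians lie between -0.09 and 0.24.

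Antioxidant enzymes outside the NRF2 set gave a median of 0.19 over 6 measured genes, none past the threshold over all genes (limma) and 2 higher at an unadjusted p under 0.05 (14.8% of all genes tested). Catalase, CAT, had 18.5 and 21.4 FPKM in knockdown cells, against 12.9 and 13.6 FPKM in control cells (fold 1.51, limma adjusted p = 0.111). SOD1, the cytosolic superoxide dismutase and the most abundant of the list, had a fold of 1.19, and OXSR1, a stress-responsive kinase, 0.901. SOD2, the mitochondrial superoxide dismutase, had 2.58 and 3.19 FPKM in knockdown cells, against 1.98 and 1.40 FPKM in control cells; the table holds a second row of that name at no more than 0.03 FPKM.

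SLC7A11 is also a target of ATF4, the factor of the amino acid stress response. Of 17 measured ATF4 genes 10 lay above 0, near the 61.4% of all genes tested, with a median of 0.07; none passed over all genes (limma), and 2 were higher and 2 lower at an unadjusted p under 0.05, beside 14.8% and 8.00% of all genes tested. SLC7A5, a leucine carrier that also pairs with SLC3A2, had 529.7 and 440.2 FPKM in knockdown cells, against 320.3 and 276.4 FPKM in control cells (fold 1.63, limma adjusted p = 0.116), and SLC38A2, a glutamine carrier, had a fold of 1.36. CTH, which makes cysteine from cystathionine, had 5.85 and 6.24 FPKM in knockdown cells, against 11.3 and 11.8 FPKM in control cells (fold 0.523, limma adjusted p = 0.0723), and DDIT4, an inhibitor of mTORC1, was lower in both (fold 0.639).

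A pair of library measures moved with the groups. Mitochondrially encoded genes made up 28.1% and 26.8% of summed FPKM in knockdown libraries, against 41.2% and 41.9% in control libraries, and the summed FPKM of the 15 keratinocyte and epithelial markers was 939 and 999 in knockdown libraries, against 1307 and 1391 in control libraries. KRT5 (mean of 140 FPKM in knockdown cells and 287 FPKM in control cells) and SFN (170 FPKM in knockdown cells and 305 FPKM in control cells) carried most of that difference. KRT6A (fold 0.396), CDH3 (0.646), CDH1 (0.662), KRT18 (0.839) and KRT8 (0.890) were also lower in both knockdown libraries, as were 19.2% of all genes tested. TP63, DSP, ITGB4, EPCAM and PERP overlapped between the groups. When values were rescaled to the sum over nuclear genes, all 8 targets remained above 0 with a median log2 fold change of 0.74, and 7 of 8 had an unadjusted p under 0.05 and a positive sign, beside 11.3% of all genes tested. With median centring the median of the 8 was 0.69, with 6 of 8 under that p beside 9.54% of all genes tested. The balance over all genes tested depended on the scaling. At that p, 1834 were higher and 993 lower without rescaling. With median centring 1184 were higher and 1397 lower, and with quantile normalization 1336 and 1409. The part of the lower marker sum in the differences of the 8 targets was not tested.

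**Figure D5:**
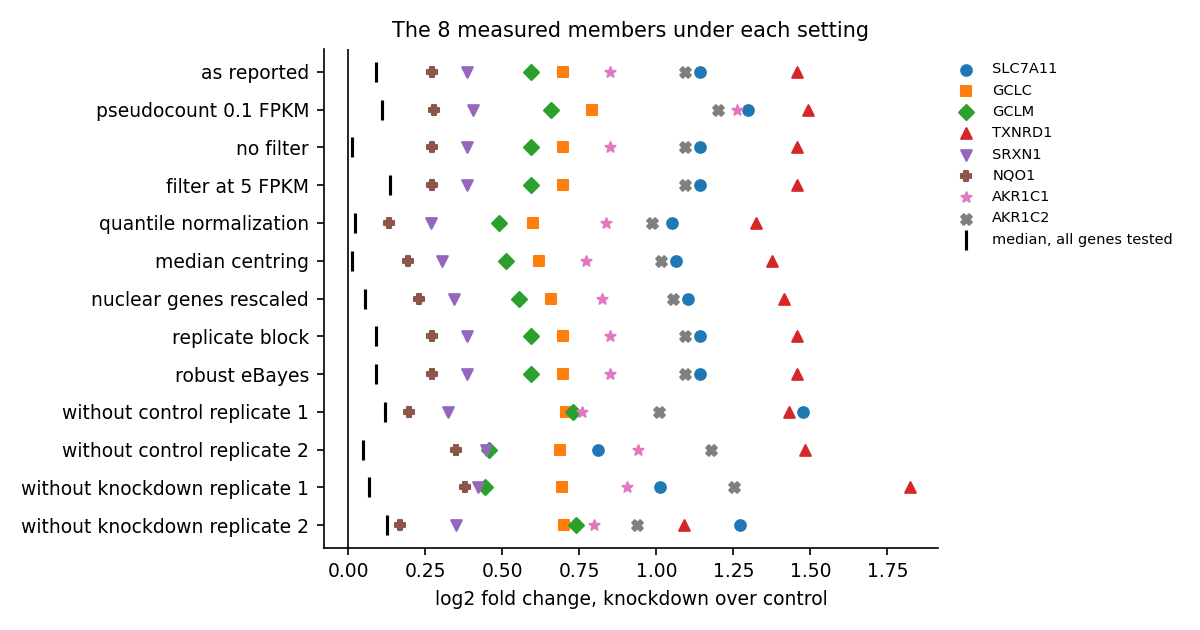
Log2 fold change, knockdown over control, of the 8 measured NRF2 targets (symbols) under each processing setting (rows), with the median of all genes tested as a black tick. Every symbol lies right of 0 and of that tick in every row; AKR1C1 has no point in the row with the filter at 5 FPKM.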

How the data were processed

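RNA was sequenced in 2 knockdown and 2 control libraries; per the labels' protocols, mRNA was selected with oligo(dT) beads and read as pairs of 150 bases from dUTP libraries. The submitters' processing notes name HISAT2 2.0.4, StringTie 1.3.4d, cutadapt 1.9, edgeR and DESeq2 without saying what each did; genome build, annotation and strand setting: not given in the sources used here. The authors deposited FPKM values with 2 decimals, and a fold (ratio) column with its log2, knockdown over control, of which the text uses the fold for HMOX1 and AKR1B10. Because FPKM is a share of a library, a shift in abundant transcripts moves every other value.

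Of 58825 gene IDs, 58552 were found in GENCODE 29. Values were transformed as log2(FPKM + 1), so fold changes of low genes are understated, and 12411 genes, those whose mean reached 1 FPKM in either group, entered a limma 3.58.1 fit in R 4.3.3 (trend on, group as the only term, two-sided, Benjamini-Hochberg adjustment over all genes tested, threshold 0.05). The fit was tested on simulated data. A fold is the ratio of the group means of FPKM. An exact permutation test of 2 against 2 libraries cannot go below p = 0.333, so p-values rest on the spread pooled over genes. Depth is unknown: low values of genes with 1 transcript came within 0.1 of a whole read for 33.0% to 35.7% of values at the best depth tried, against a median of 18.3% to 19.2%, so reads were not recovered.

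The members and gene lists were chosen with earlier results of these data known, and the lists were assembled from general knowledge. From each list the text names every gene past the threshold, up to 4 others with the smallest p and the most abundant one; the 10 members, WFDC21P, NFE2L2, KEAP1, BACH1, MAFF, MAFG, MAFK, AKR1C3 and AKR1B1 are always named. Where 2 rows carried a symbol the higher was used. Sequences are from RefSeq (GRCh38.p14), aligned with Biopython 1.88.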

Additional observations from a re-analysis of the deposited data

How the results depend on the processing

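None of the 8 measured targets passed the limma threshold under any of the 12 alternatives, all 8 (7 with the filter at 5 FPKM, which left out AKR1C1) stayed above 0, and their median log2 fold change lay between 0.69 and 0.996 wherever the same 8 were tested. The lowest adjusted p among them was 0.0583, for AKR1C2 with the filter at 5 FPKM. With no filter, 9 of 10 lay above 0, where the median over all 27624 genes in that fit was 0.0140. The added gene above 0 was HMOX1, which lay below 1 FPKM in every library.

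Over all genes limma called 14 higher and 17 lower. With no filter it called 0 and 0 (2347 higher and 1529 lower at an unadjusted p under 0.05). With the filter at 5 FPKM it called 31 higher and 27 lower, and with quantile normalization 17 higher and 40 lower. Leaving out any 1 library gave 0 to 0 in each direction, with 981 to 1498 higher at an unadjusted p under 0.05; such a fit assumes that the lone library varies like the others. The replicate block gave 0 and 0 (2495 and 1296 unadjusted). All 8 targets were higher at an unadjusted p under 0.05 in it, beside 20.1% of all genes tested. The labels do not say that a number marks a shared batch, and deviations of same-numbered libraries correlated at 0.124 across genes, too few pairs to show pairing.

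Signs turned for 3 named genes with a log2 fold change near 0, and the cause was not tested. TKT was -0.110 with quantile normalization, -0.0608 with median centring, -0.0238 with nuclear genes rescaled, and from -0.0481 to 0.0864 when 1 library was left out. MAFK was -0.0754, -0.0748 and -0.0313 under the same 3 settings, and from -0.143 to 0.153 when 1 library was left out. HTATIP2 ran from -0.292 to 0.00714 when 1 library was left out. HMOX1 and AKR1B10 lay below 1 FPKM in all 4 libraries, and the table gives no reads to bound their counting error.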
